A study of Mus musculus with 24 samples.

Results

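The major histocompatibility complex class I (MHC-I) and peptide loading genes described here are 10 of the 45237 genes in the deposited count table, chosen by gene name. They are the heavy chain genes H2-K1, H2-D1, H2-Q7 and H2-T23, the light chain gene B2m, the peptide transporter genes Tap1 and Tap2, the tapasin gene Tapbp, the aminopeptidase gene Erap1 and the transactivator gene Nlrc5. All 10 had enough counts to be tested, among 17097 tested genes. On mm10, 7 of them lie on chromosome 17 and the others on chromosomes 2 (B2m), 8 (Nlrc5) and 13 (Erap1).

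The study followed NK cells of mice that carried one of 2 lymphomas at 3 stages of growth, with untreated mice as controls. Libraries were made from RNA of NK cells sorted by flow cytometry from the spleen of WT C57BL/6J mice, and young adult females were the default of the study. The 24 libraries fall into 7 groups, and the labels give neither the age of a mouse nor whether a library pools mice. Tumor cells had been injected intravenously.
The 4 control libraries came from mice without treatment. RMA is a T cell lymphoma line that keeps MHC-I, and its 3 early libraries were taken on day 2, its 3 intermediate libraries on day 4 and its 3 late libraries on day 9. RMA-KR is a subclone of RMA in which B2m was knocked out with CRISPR-Cas9. The NKG2D ligand Rae1-β was added to it together with ZsGreen, and the paper reports ZsGreen in RMA cells as well. The 3 early RMA-KR libraries are from day 2, the 5 intermediate libraries from day 7 and the 3 late libraries from day 14. Only the early groups share a day, so tumor and day cannot be told apart at the intermediate and late stages. The knockout is in the tumor cells, so B2m counts in sorted NK cells do not check it.

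Class I molecules are made of a heavy chain and β2-microglobulin, and they reach the cell surface once a peptide is bound. The TAP transporter, a dimer of the Tap1 and Tap2 products, moves peptides from the cytosol into the endoplasmic reticulum, where ERAP1 trims them and tapasin helps to load them. Interferons raise most genes of this pathway, NLRC5 acts on their shared promoter elements, and NK cells read class I on other cells, and on themselves, through inhibitory Ly49 and CD94/NKG2A receptors.

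Total counts per library ran from 5138651 (control 1) to 14863500 (RMA-KR late 2), with a median of 10489204. The 10 genes together took 2.07% to 3.46% of the counts of a library. The fewest counts of a member in a library were 382 (Erap1) and 458 (Nlrc5), both in control 1. Values are normalized CPM (counts scaled to library size with edgeR's TMM factors), and log2 fold changes with SE and Benjamini-Hochberg adjusted p come from edgeR's quasi-likelihood test over the 17097 genes. A gene passed with an adjusted p under 0.05.
Several libraries stood apart. In control 4 and RMA-KR intermediate 3, 4 and 5, the immediate early gene Fos was at 67.3 to 88.3 CPM, against 403 to 1910.1 in the other libraries, and Junb was at 495 to 530.1 against 1233 to 3421 CPM. The RMA-KR intermediate group therefore holds 2 libraries of one kind and 3 of the other. Control 1 had the fewest counts and was the lowest control for 7 of the 10 genes, and control 4 was the lowest for H2-K1, H2-D1 and H2-Q7.

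Markers fit to the label were checked next. The 10 NK cell markers summed to 20868 to 37387 CPM, with Gzma the most abundant, and Ncr1, which encodes the sorted receptor NKp46, was at 1625 to 4039.8 CPM. The 3 lowest sums were those of RMA-KR intermediate 3, 4 and 5, at 20868 to 22119.6 CPM against at least 24065 elsewhere, and these libraries also had the lowest Gzma, at 4445 to 5031 CPM. The 11 markers of T cells and of the T lymphoma line summed to 362 to 689 CPM, nearly all from Trbc1, Trbc2 and Cd28. Cd3e, Cd4 and Cd8a stayed at or below 5.00 CPM in every library, and Trac at or below 19.9 CPM. Cd3d was at 21.0 to 30.6 CPM and Cd3g at 18.9 to 24.2 CPM in RMA-KR intermediate 3, 4 and 5, against at most 17.2 and 23.8 CPM elsewhere. Cd5 reached 23.5 CPM in RMA early 2 with a median of 0.0351 CPM.
The 9 B cell markers summed to 213 to 585 CPM, led by Ighm, with Ms4a1 at a median of 0. The 9 macrophage and monocyte markers summed to 3.20 to 80.1 CPM, the 7 granulocyte markers to 0 to 12.4 CPM and the 7 red blood cell markers to 0 to 3.83 CPM. The 6 plasma cell markers summed to 143 to 413 CPM, mostly Xbp1. The highest sum was that of RMA-KR late 2, where Xbp1 was at 287 CPM. In that library Igkc reached 134 CPM, Ighg2c 107 CPM and Jchain 17.7 CPM, with medians over all libraries of 1.68, 0.0446 and 0.417 CPM. Igha reached 76.7 CPM in RMA-KR early 1, with a median of 0. What these immunoglobulin signals contributed was not tested. The 8 dendritic cell and class II markers summed to 381 to 1201 CPM, mostly Itgax, which NK cells also express.
Some sums did not overlap control. Macrophage and monocyte markers summed to 8.74 to 18.5 CPM in control, 34.0 to 51.0 in RMA late, 29.2 to 31.4 in RMA-KR early and 36.2 to 80.1 in RMA-KR late. Dendritic cell and class II markers, mostly Itgax, summed to 381 to 667 CPM in control, 775 to 896 in RMA intermediate and 803 to 931 in RMA-KR late. B cell markers were higher in RMA-KR late (408 to 585 against 242 to 405 CPM in control) and plasma cell markers in RMA intermediate (283 to 318 against 173 to 249.8), where T cell markers were lower (362 to 415 against 449 to 561). Their part in the differences described here was not tested.
The class II chain gene Cd74 was at 48.5 to 78.7 CPM in RMA-KR intermediate 3, 4 and 5 and at most 19.6 CPM elsewhere. Raet1b, for the ligand carried by RMA-KR, is not listed under that name.

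Per kilobase of median annotated transcript length, H2-D1 stood 2nd of the 45237 genes in control NK cells (13416 ± 1331 CPM per kilobase, SD, n = 4), H2-K1 4th (9022 ± 871) and B2m 8th (5562 ± 1644). The other members followed at 951 (Tapbp), 693 (H2-Q7), 657 (Tap2), 298 (H2-T23), 294 (Erap1), 132 (Tap1) and 79.7 CPM per kilobase (Nlrc5). The order depends on which transcripts are annotated, since the median length is 378 bases for Tap2, 540 for Erap1, 561 for H2-D1, 649 for Tapbp and 861.5 for H2-K1, against 2638 for Tap1. Tap1 had more counts than Tap2 in control (347 ± 37.3 against 248 ± 31.9 CPM).
Class I genes resemble each other, and reads can be lost or misplaced between them. Of the 50-base windows of a member's annotated transcripts, 26.5% for H2-Q7, 14.5% for H2-T23, 12.8% for H2-D1 and 9.63% for H2-K1 also occur in transcripts of another gene. The share was 23.2% for Tapbp, 11.6% for Tap2, 10.7% for Erap1, 3.33% for Tap1, 0.338% for Nlrc5 and 0 for B2m.
Annotated genes on the opposite strand overlap H2-T23 (A930015D03Rik), B2m (Patl2), Tap1 (Psmb9), Tap2 (Gm20496 and Gm15821), Tapbp (Gm19412), Nlrc5 (9330175E14Rik) and Erap1 (Cast). Zbtb22 and Mir7072 overlap Tapbp and Nlrc5 on the same strand. Whether counting used the strand is not given in the sources used here, so reads of such partners cannot be told apart from those of the members.

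**Figure D1:**
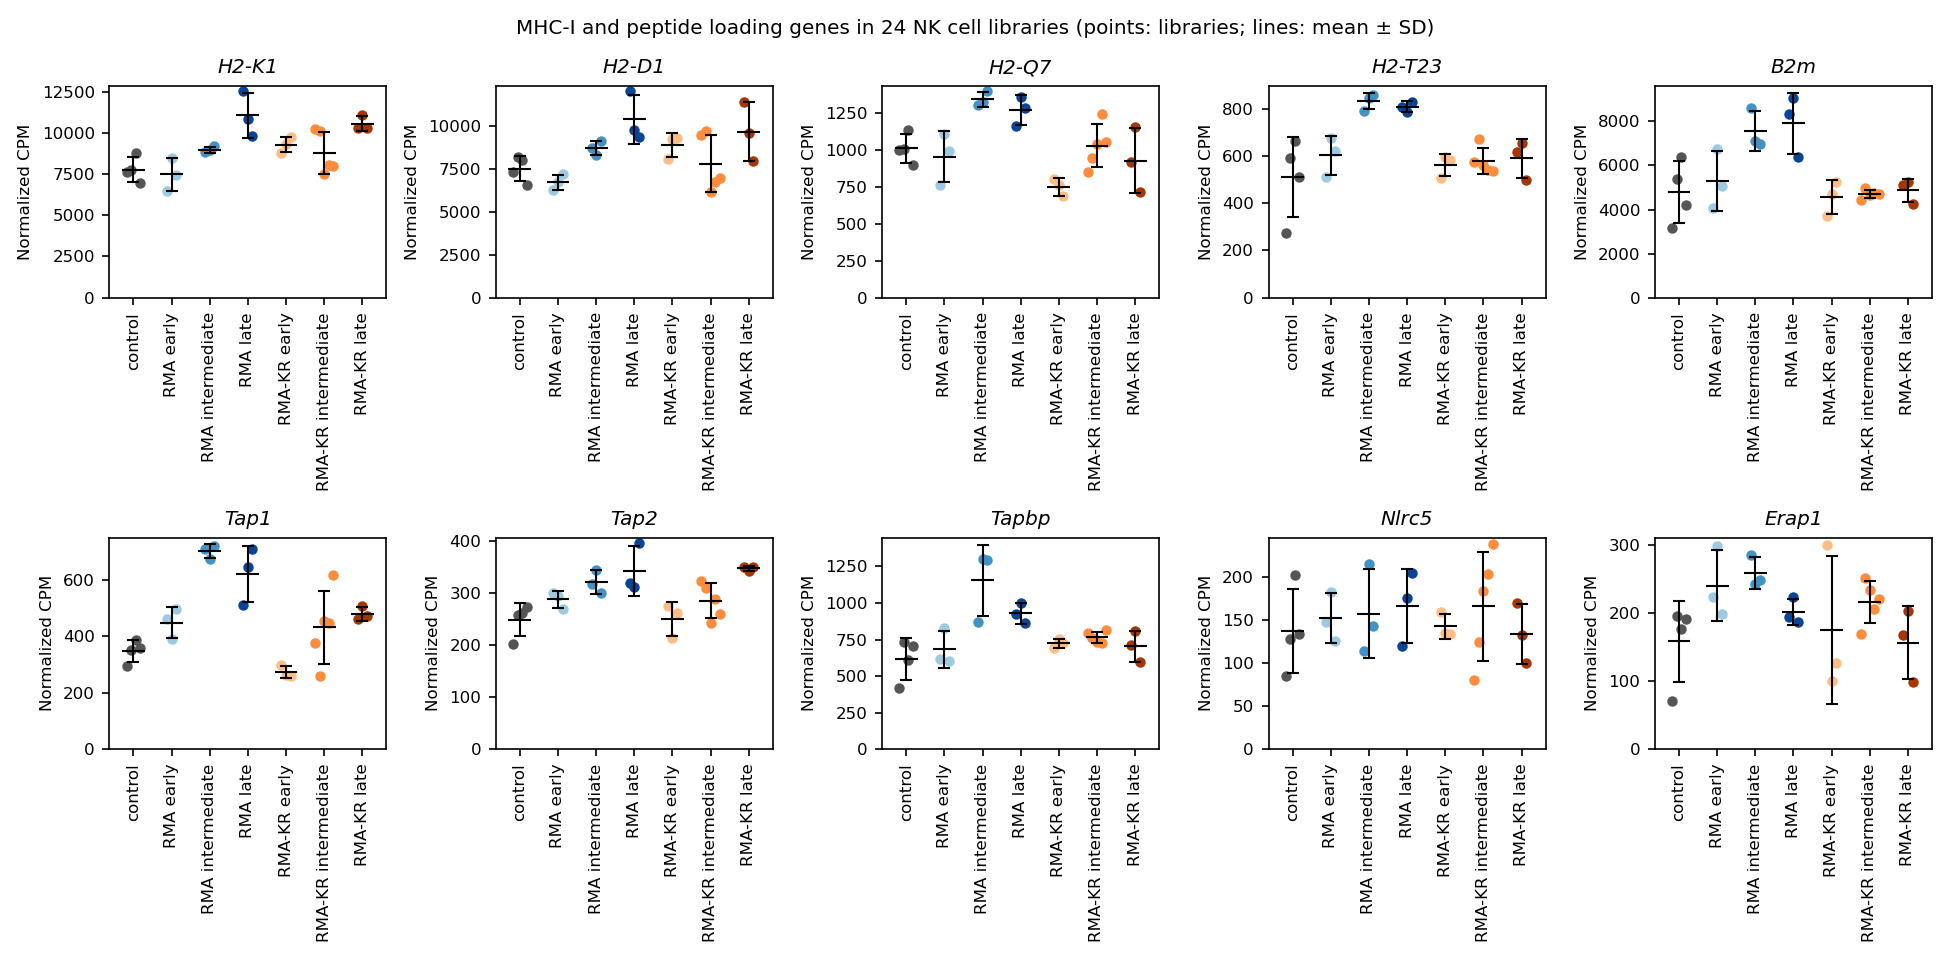
Normalized CPM of the 10 genes (vertical axes) in the 24 libraries by group (horizontal axes), with points for libraries and lines for mean ± SD. Tap1 libraries of RMA intermediate lie at 673 to 720.3 CPM, above all 4 controls at 296 to 385 CPM.

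Heavy chain and light chain genes are known to share interferon response, kappa B and X and Y box elements in their promoters. RefSeq start sites (GRCm38.p6, which is mm10) were found for 8 of the 10 members, all but Tap2 and Nlrc5. The 250 bases before each start were searched on both strands for AANNGAAA (interferon response core), GGGGATTCC (kappa B), TGACG (X2 core) and CCAAT (Y box). The windows of H2-K1 (chr17:34000348-34000597, minus strand), H2-Q7 (chr17:35438905-35439154, plus strand) and B2m (chr2:122147437-122147685, plus strand) follow, 5′ to 3′, with matches on either strand in capitals. The last base of the B2m window lies in an annotated exon and is not shown, and the windows of the other 5 members overlap annotated exons.
H2-K1: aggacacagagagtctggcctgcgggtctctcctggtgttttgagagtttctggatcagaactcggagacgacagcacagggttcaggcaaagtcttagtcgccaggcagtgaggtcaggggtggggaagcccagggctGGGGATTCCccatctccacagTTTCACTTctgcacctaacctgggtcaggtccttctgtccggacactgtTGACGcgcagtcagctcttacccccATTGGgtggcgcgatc
H2-Q7: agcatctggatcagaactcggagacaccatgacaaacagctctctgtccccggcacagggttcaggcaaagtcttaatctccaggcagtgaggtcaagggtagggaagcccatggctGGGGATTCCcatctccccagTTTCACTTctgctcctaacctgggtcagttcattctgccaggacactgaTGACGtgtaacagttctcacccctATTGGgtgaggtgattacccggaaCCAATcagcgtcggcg
B2m: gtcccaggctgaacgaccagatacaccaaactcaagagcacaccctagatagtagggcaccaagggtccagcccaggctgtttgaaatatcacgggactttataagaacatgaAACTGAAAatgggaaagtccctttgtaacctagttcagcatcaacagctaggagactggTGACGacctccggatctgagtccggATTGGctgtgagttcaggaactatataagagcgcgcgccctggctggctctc
In the H2-K1 promoter the kappa B match begins 111 bases before the start, the interferon response match 90 bases, the X2 match 41 bases and the Y box match 16 bases before it. H2-Q7 holds the same 4 motifs in the same order, from 133, 113, 64 and 40 bases before its start, and a further Y box match at 16. H2-D1 holds them from 171, 150, 101 and 76 bases before its start, with a further Y box match at 53. B2m holds interferon response, X2 and Y box matches from 137, 78 and 53 bases before its start. It has no match to the kappa B letters GGGGATTCC, and other forms of the kappa B element were not searched.
H2-T23 has interferon response matches at 124 and 81 bases and a Y box match at 52. Tap1 has an X2 match at 86 and a Y box match at 222, Tapbp has Y box matches at 248 and 165, and Erap1 has no match to any of the 4. None of the matches overlap one another.
Among 32851 promoters searched in the same way, 21.3% hold the interferon response core (5 of the 8 members), 0.213% the kappa B letters (3 of 8), 17.8% the X2 core (5 of 8) and 33.8% the Y box (7 of 8). A match is a run of letters and not a measured site.

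**Figure D2:**
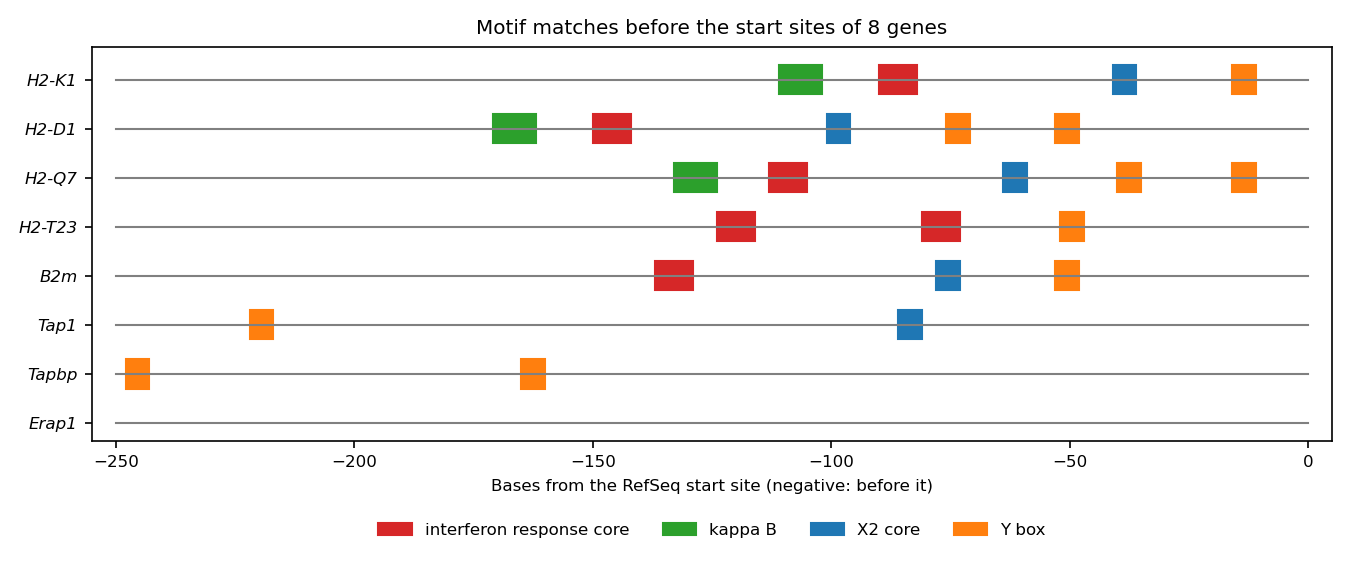
Motif matches in the 250 bases before the RefSeq start sites of 8 genes (horizontal axis: bases from the start), with colors for the 4 motifs. H2-K1, H2-D1 and H2-Q7 hold kappa B, interferon response, X2 and Y box matches in the same order.

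H2-K1 and H2-D1 encode the classical heavy chains, which present peptides to CD8 T cells and are read by Ly49 receptors. H2-K1 (ENSMUSG00000061232, chromosome 17 from 33996017 to 34000347) was at 7638, 7759, 8757 and 6935 CPM in the 4 controls. In RMA-bearing mice it was at 6484, 8479.6 and 7466 CPM on day 2, 8827, 8927 and 9171 on day 4 and 12537, 10830.3 and 9783 on day 9. In RMA-KR–bearing mice it was at 8785, 9334 and 9740.1 CPM on day 2, 10226, 10087, 7472, 8068 and 7966 on day 7 and 10288, 11076 and 10283 on day 14.
All late libraries of both models, and all intermediate RMA libraries, were above every control. In the RMA-KR intermediate group, the libraries with low Fos (3, 4 and 5) were the low ones. These also had the lowest NK cell marker sums, and what set them apart was not tested. The group means ran from 7477 ± 998 (SD, n = 3) in RMA early to 11049.9 ± 1390.1 (SD, n = 3) in RMA late, and of the neighbors in this order RMA-KR late and RMA-KR early did not overlap.
H2-K1 rose in RMA late against control (log2 fold change 0.51, SE 0.12, edgeR adjusted p = 0.0204) and from RMA early to RMA late (0.56, SE 0.13, adjusted p = 0.0205). In bulk RNA, more cells of a type and more RNA per cell cannot be told apart, here or for the genes that follow. The first call was lost without control 1 (edgeR adjusted p = 0.0673), control 2 (0.0634), control 4 (0.102), RMA late 1 (0.127) or RMA late 2 (0.0852), and the second without RMA early 1 (0.170), RMA early 3 (0.0537), RMA late 1 (0.0756) or RMA late 2 (0.0994). The first was also lost with a replicate block (edgeR adjusted p = 0.0713) and the second with only the libraries of the compared groups in the fit (0.164).
In RMA-KR late, H2-K1 was 0.44 above control on the log2 scale (SE 0.12) and did not pass (edgeR adjusted p = 0.0791).

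H2-D1 (ENSMUSG00000073411, chromosome 17 from 35262730 to 35267499) varied in parallel. It was at 7322, 8184, 8041 and 6559 CPM in control NK cells. In RMA-bearing mice the values were 6297, 6730.1 and 7185 CPM on day 2, 8758, 8312 and 9151 on day 4 and 12052, 9793 and 9389 on day 9. RMA-KR–bearing mice gave 8079, 9276 and 9339 CPM on day 2, 9496, 9729, 6151, 6755 and 6973 on day 7 and 11441, 9594 and 7991 on day 14.
Every RMA late library was above every RMA early and every control library. RMA-KR intermediate again split by library, with the 3 libraries low in Fos at 6151 to 6973 CPM and the other 2 at 9496 and 9729 CPM. The order of means was RMA late, RMA-KR late, RMA-KR early, RMA intermediate, RMA-KR intermediate, control and RMA early, and each neighbor overlapped the next.
H2-D1 rose from RMA early (6737 ± 444 CPM) to RMA late (10412 ± 1435 CPM, SD, n = 3), with a log2 fold change of 0.63 (SE 0.16, edgeR adjusted p = 0.0354). Of the 6 libraries of these groups, only leaving out RMA late 3 kept the call. The adjusted p was 0.179 without RMA early 1, 0.0824 without RMA early 2, 0.0547 without RMA early 3, 0.148 without RMA late 1 and 0.120 without RMA late 2. With only the libraries of the compared groups in the fit it was 0.132.
Against control, RMA late was 0.47 higher on the log2 scale (SE 0.15, edgeR adjusted p = 0.107) and RMA-KR late 0.36 higher (SE 0.15, adjusted p = 0.313), and neither passed.

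H2-Q7 (ENSMUSG00000060550, chromosome 17 from 35439155 to 35443773) encodes a nonclassical heavy chain of the Qa-2 family, and H2-T23 (ENSMUSG00000067212, chromosome 17 from 36029773 to 36032855) encodes Qa-1, which shows leader peptides of other class I chains to CD94/NKG2A. H2-Q7 was at 897 to 1138 CPM in control, 1301 to 1397 in RMA intermediate, 1162 to 1359.7 in RMA late and 686 to 806 in RMA-KR early. The first 2 of these tumor groups lay above all controls and RMA-KR early lay below them. None of these differences passed, at log2 fold changes of 0.41 (edgeR adjusted p = 0.211), 0.33 (0.342) and −0.43 (0.438).
H2-T23 was at 274, 590.1, 663 and 509.7 CPM in control. With RMA it was at 511, 676 and 619 CPM on day 2, 792, 845 and 857 on day 4 and 808, 785 and 829.8 on day 9. With RMA-KR it was at 508, 595 and 581 CPM on day 2, 572, 671, 561, 541 and 536 on day 7 and 616, 656 and 496 on day 14.
The 6 RMA intermediate and late libraries were above all 18 others, and RMA late did not overlap RMA early, the next group in the order of means. Control 1, at 274 CPM, was far under the other controls.
H2-T23 rose in RMA intermediate against control (log2 fold change 0.71, SE 0.19, edgeR adjusted p = 0.0493), close to the threshold. The call was lost without control 1 (0.109), control 2 (0.0643), control 4 (0.130), or RMA intermediate 1 (0.0983), 2 (0.140) or 3 (0.167), and without control 1 the log2 fold change was 0.47. It was also lost with a replicate block (edgeR adjusted p = 0.0739), with only the compared groups in the fit (0.0774) and without the 4 libraries low in Fos (0.116). In RMA late the log2 fold change was 0.67 (SE 0.19), which did not pass (edgeR adjusted p = 0.0634).

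B2m (ENSMUSG00000060802, chromosome 2 from 122147686 to 122153083) encodes the light chain that every class I heavy chain above needs. It was at 3143, 5374, 6406 and 4211 CPM in control NK cells. In RMA-bearing mice it was at 4047, 6768 and 5061 CPM on day 2, 8599.9, 7132 and 6961 on day 4 and 8324, 9056 and 6381 on day 9. In RMA-KR–bearing mice it was at 3727, 4690.5 and 5241 CPM on day 2, 4428, 4959, 4671, 4744 and 4709 on day 7 and 5108, 5232 and 4265 on day 14.
The controls spread over a wide range, and all 11 RMA-KR libraries fell inside it. All RMA intermediate libraries were above every control, while RMA late 3 was just under control 3. The means of RMA late (7920.3 ± 1382 CPM) and RMA intermediate (7564 ± 901) stood above the other 5 groups, whose means ran from 4553 ± 766 (SD, n = 3) to 5292 ± 1375 (SD, n = 3), and RMA intermediate did not overlap RMA early.
B2m rose in RMA late against control (log2 fold change 0.73, SE 0.19, edgeR adjusted p = 0.0368). This was lost without control 1 (0.149), control 2 (0.0559), control 4 (0.138), RMA late 1 (0.130) or RMA late 2 (0.230). It was also lost with a replicate block (edgeR adjusted p = 0.0810), with only the compared groups in the fit (0.0698) and without the 4 libraries low in Fos (0.151). RMA intermediate was 0.66 above control (SE 0.19, edgeR adjusted p = 0.0693) and did not pass.
RMA-KR against RMA gave −0.69 (SE 0.18, edgeR adjusted p = 0.0901) at the intermediate stage and −0.70 (SE 0.20, adjusted p = 0.655) at the late stage. Neither passed, although at both stages every RMA-KR library was below every RMA library.

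The transporter genes Tap1 (ENSMUSG00000037321, chromosome 17 from 34187553 to 34197225) and Tap2 (ENSMUSG00000024339, chromosome 17 from 34203527 to 34216321) lie close together. Tap1 was at 296, 350.4, 385 and 358 CPM in control. With RMA it was at 459, 389 and 496 CPM on day 2, 709, 673 and 720.3 on day 4 and 509.7, 643 and 707 on day 9. With RMA-KR it was at 297, 263 and 259 CPM on day 2, 377, 260.3, 455, 445 and 616 on day 7 and 459.8, 506 and 471 on day 14.
All 9 RMA libraries were above all 4 controls, already on day 2. In RMA-KR–bearing mice the day 14 libraries were above the controls and day 2 lay near or below them, with day 7 spread over both.
Tap1 doubled in RMA intermediate, from 347 ± 37.3 to 701 ± 25.0 (SD, n = 3), with a log2 fold change of 1.01 (SE 0.19, edgeR adjusted p = 0.00420), and it passed without any one of the 7 libraries of these groups. It also rose in RMA late (0.84, SE 0.19, edgeR adjusted p = 0.0142), a call lost without control 1 (0.0694) or RMA late 2 (0.0666). In RMA-KR late the value was 0.46 (SE 0.19, edgeR adjusted p = 0.309), which did not pass.
Tap1 was lower in RMA-KR than in RMA, without overlap, at each stage. On the log2 scale the difference was −0.71 at the early stage (SE 0.20, edgeR adjusted p = 0.153) and −0.70 at the intermediate stage (SE 0.18, adjusted p = 0.0756), and neither passed. At the late stage it did not reach an unadjusted p under 0.05 (−0.37, SE 0.20, edgeR adjusted p = 0.656). Without the 4 libraries low in Fos, a choice made after seeing the data, the intermediate difference passed.
From day 2 to day 14 of RMA-KR, Tap1 went from 273 ± 20.7 to 479 ± 24.1 (SD, n = 3), a log2 fold change of 0.81 (SE 0.20, edgeR adjusted p = 0.0809) that did not pass.

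Tap2 differed less and in another order. It was at 201 to 272 CPM in control, 269 to 299.9 in RMA early, 299 to 344 in RMA intermediate and 311 to 397 in RMA late. RMA-KR–bearing mice gave 213 to 275 CPM on day 2, 243 to 323 on day 7 and 341 to 351 on day 14. The highest mean was that of RMA-KR late (347 ± 5.06 CPM, SD, n = 3), just above RMA late (342 ± 47.4 CPM, SD, n = 3), and each group overlapped its neighbor in the order.
No Tap2 difference passed. The log2 fold change against control was 0.46 in RMA late (SE 0.14, edgeR adjusted p = 0.0870), 0.48 in RMA-KR late (SE 0.14, adjusted p = 0.106) and 0.37 in RMA intermediate (SE 0.14, adjusted p = 0.223).

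Tapbp (ENSMUSG00000024308, chromosome 17 from 33915899 to 33929292) encodes tapasin, which bridges TAP and the empty class I molecule. It was at 421, 732, 608 and 708 CPM in control. In RMA-bearing mice it was at 617, 827 and 604 CPM on day 2, 872, 1301 and 1291 on day 4 and 922, 1002 and 861 on day 9. In RMA-KR–bearing mice it was at 692, 753 and 724 CPM on day 2, 795, 759.9, 734, 727 and 814 on day 7 and 709, 805 and 597 on day 14.
RMA intermediate libraries 2 and 3 were the highest of all, and every RMA intermediate and late library was above every other library. Tapbp rose in RMA intermediate (log2 fold change 0.90, SE 0.17, edgeR adjusted p = 0.00459), and the call held without any one of the 7 libraries. In RMA late the log2 fold change was 0.59 (SE 0.17) and did not pass (edgeR adjusted p = 0.0664).
RMA-KR intermediate was below RMA intermediate in all 5 libraries, with a log2 difference of −0.59 (SE 0.16, edgeR adjusted p = 0.109), and RMA-KR late below RMA late in all 3, with −0.40 (SE 0.18, adjusted p = 0.655), and neither passed.

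Erap1 (ENSMUSG00000021583, chromosome 13 from 74639568 to 74693201), for the aminopeptidase that trims peptides in the endoplasmic reticulum, varied widely within control, RMA-KR early and RMA-KR late. It was at 70.6, 196, 177 and 192 CPM in control, so that control 1 alone was low, and at 299.9, 99.6 and 126 CPM in RMA-KR early, where library 1 alone was high. RMA intermediate was above every control at 243 to 285 CPM, with a log2 fold change of 0.71 (SE 0.32, edgeR adjusted p = 0.297) that did not pass. The means of the other tumor groups ran from 157 ± 53.3 (SD, n = 3) to 241 ± 52.0 (SD, n = 3).
Nlrc5 (ENSMUSG00000074151, chromosome 8 from 94434356 to 94527272), whose product activates class I, B2m and Tap1 promoters, was the least abundant member per kilobase, and each of the 7 groups overlapped its neighbor in the order of means. Its group means ran from 134 ± 34.7 (SD, n = 3) in RMA-KR late to 166 ± 43.1 (SD, n = 3) in RMA late, against 137 ± 48.6 (SD, n = 4) in control. It did not reach an unadjusted p under 0.05 in any comparison. In RMA-KR intermediate it was at 80.0, 124, 184, 204 and 238 CPM, with the higher values in the 3 libraries low in Fos.

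**Figure D3:**
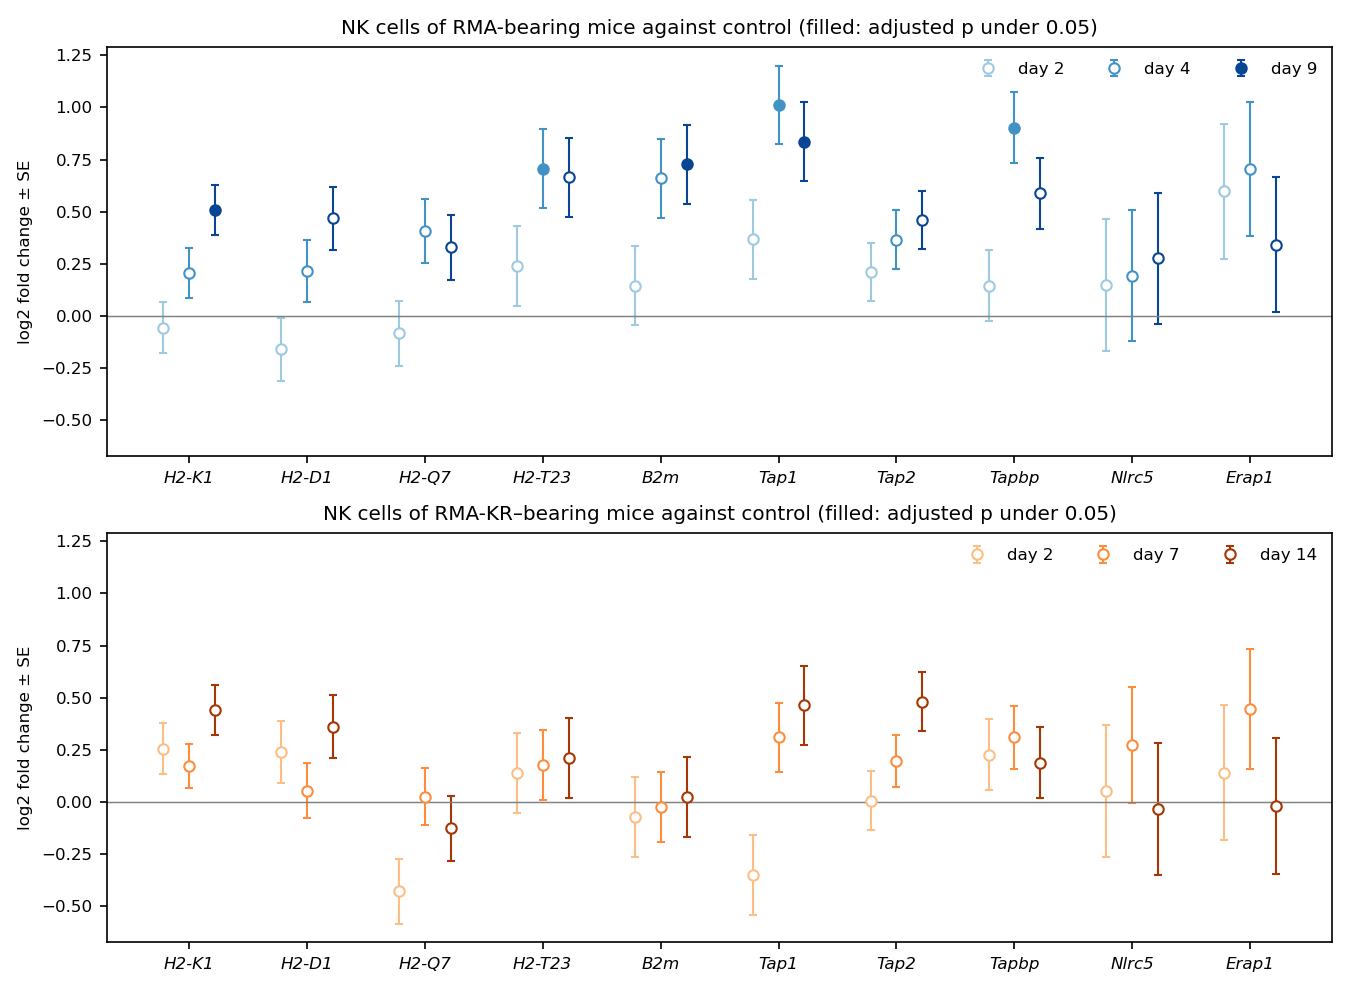
Log2 fold change against control (vertical axes, ± SE) of the 10 genes (horizontal axes) in RMA-bearing mice (top) and RMA-KR–bearing mice (bottom), with colors for days and filled points for an adjusted p under 0.05. Filled points are found for 3 genes on day 4 and 3 genes on day 9 of RMA, and for none of RMA-KR.

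Which class I genes changed in NK cells of RMA-bearing mice was asked by comparing each stage with control. On day 2 no member passed, although Tap1 and Erap1 already lay above the controls. By day 4 all 10 were higher on average, and the transporter and tapasin genes Tap1 and Tapbp and the Qa-1 gene H2-T23 passed. On day 9 Tap1 passed again, with the classical heavy chain gene H2-K1 and the light chain gene B2m, while Tapbp and H2-T23 did not, and day 9 was not tested against day 4.
At the early stage none of the 10 genes passed (edgeR), where 0% of all tested genes passed upward, none had an unadjusted p under 0.05 (against 7.04% of tested genes, in either direction here and throughout), and DESeq2 passed 0 as well, both with its default settings and with betaPrior=TRUE (where 77 and 32 of all 45237 genes passed). Tap1 and Erap1 lay above every control in all 3 libraries, a pattern found in 2.12% of tested genes. The median log2 fold change was 0.15 for the 10 genes and −0.06 for all tested genes, and the members ran from −0.16 to 0.60.
At the intermediate stage 3 of 10 passed, all higher (Tap1, Tapbp and H2-T23), where 1.85% of tested genes passed upward. All 10 log2 fold changes were positive (against 36.6% of tested genes) and 7 had an unadjusted p under 0.05 (15.9%). Also, 9 of 10 genes were above every control in every library, against 10.2% of tested genes. The median log2 fold change was 0.53 for the 10 genes and −0.29 for all tested genes, and DESeq2 passed 4 (with B2m) in both modes, where 955 and 889 of all 45237 genes passed.
At the late stage 3 of 10 passed, all higher (H2-K1, B2m and Tap1), where 2.14% of tested genes passed upward. All 10 were positive (against 40.7% of tested genes) and 8 had an unadjusted p under 0.05 (14.0%), and 7 lay above every control without overlap, against 9.24% of tested genes. The median was 0.49 for the 10 genes and −0.18 for all tested genes.
The late count turned on single libraries and on the tool. None passed without control 1 or without RMA late 2, and 1 passed without control 2, control 4 or RMA late 1, while DESeq2 passed 6 with its default settings and 7 with betaPrior=TRUE, where 1027 and 990 of all 45237 genes passed. The cell cycle gene Mki67 was at 260.5 to 358 CPM in RMA intermediate and late libraries and at most 60.8 CPM in controls, and was at 243 to 334 CPM in RMA-KR late. Its part in these differences was not tested.

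The same question was asked of RMA-KR–bearing mice. On day 2 H2-K1 was above every control and H2-Q7 below. On day 7 no member stood apart from control, and on day 14 the classical heavy chain genes H2-K1 and H2-D1 and the transporter genes Tap1 and Tap2 were the higher ones, with B2m at the level of control (4868 ± 526 against 4784 ± 1414 CPM, SD, n = 4).
At the early stage none of 10 passed (edgeR), where 0% of tested genes passed upward and 17 of 17097 downward. H2-K1 (0.26) and H2-Q7 (−0.43) had an unadjusted p under 0.05 (2 of 10, against 8.71% of tested genes), and DESeq2 passed 0 in both modes, where 192 and 167 of all 45237 genes passed. H2-K1 alone was above every control in all 3 libraries, as were 4.5% of tested genes, and H2-Q7 alone was below every control, as were 6.01%.
At the intermediate stage none of 10 passed and none had an unadjusted p under 0.05 (against 5.91% of tested genes), with 0.0175% of tested genes passing upward, and DESeq2 again passed 0, where 32 and 36 of all 45237 genes passed. No member was above every control in all 5 libraries, a pattern that 1.33% of tested genes showed. The median log2 fold change was 0.19 for the 10 genes and 0.01 for all tested genes.
At the late stage none passed with edgeR, where 0.889% of tested genes passed upward. Of the members, 4 had an unadjusted p under 0.05 (against 14.2% of tested genes), all higher, and DESeq2 passed 2 of them (H2-K1 and Tap2), with default settings and with betaPrior=TRUE alike, where 667 and 580 of all 45237 genes passed. H2-K1, Tap1 and Tap2 lay above every control without overlap, against 5.88% of tested genes, and the median was 0.20 for the 10 genes and −0.18 for all tested genes.

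**Figure D4:**
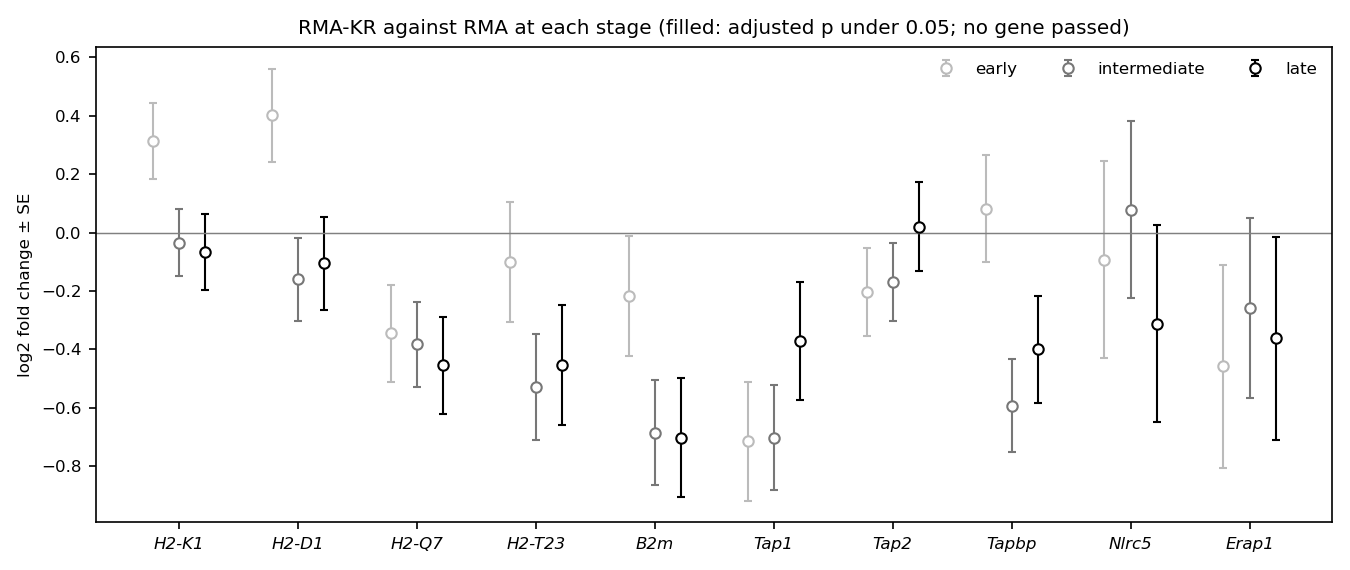
Log2 fold change of RMA-KR against RMA (vertical axis, ± SE) for the 10 genes (horizontal axis) at the early, intermediate and late stage. H2-Q7, H2-T23, B2m, Tap1 and Erap1 lie below 0 at all 3 stages. H2-K1, H2-D1 and Tapbp lie below 0 at the intermediate and late stage, and no point passes.

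NK cells of the 2 models were compared directly, on the same day only at the early stage. There, the classical heavy chain genes were higher in RMA-KR–bearing mice and Tap1 was lower. At the intermediate and late stages B2m, H2-T23, H2-Q7, Tap1 and Tapbp were lower in RMA-KR–bearing mice in every library, while H2-K1 and H2-D1 overlapped.
At the early stage none of 10 passed (edgeR), where 0.339% of tested genes passed in either direction. H2-K1 (0.31) and H2-D1 (0.40) were higher and H2-Q7 (−0.35) and Tap1 (−0.71) lower at an unadjusted p under 0.05 (4 of 10, against 12.3% of tested genes). DESeq2 passed 1, Tap1, in both modes, where 423 and 328 of all 45237 genes passed. H2-K1 and H2-D1 were above every RMA library in all 3 RMA-KR libraries, as were 7.21% of tested genes. Only Tap1 was below every RMA library in all 3, against 5.56% of tested genes.
At the intermediate stage none passed with edgeR, where 0.643% of tested genes passed, while DESeq2 passed 3 (B2m, Tap1 and Tapbp) in both modes, where 444 and 308 of all 45237 genes passed. Of the members, 5 had an unadjusted p under 0.05 (against 14.2% of tested genes), all lower, and the same 5 lay below every RMA library in all 5 RMA-KR libraries, against 5.82% of tested genes. Besides B2m, Tap1 and Tapbp these were H2-T23 (−0.53, SE 0.18) and H2-Q7 (−0.38, SE 0.15). The median log2 fold change was −0.32 for the 10 genes and 0.23 for all tested genes. With edgeR, Tapbp passed without RMA intermediate 1 and Tap1 without RMA-KR intermediate 5.
At the late stage none of 10 passed with edgeR, where 0% of tested genes passed. DESeq2 passed 0 of 10 in both modes, where 52 and 16 of all 45237 genes passed. B2m (−0.70), H2-Q7 (−0.45, SE 0.17), H2-T23 (−0.45, SE 0.21) and Tapbp had an unadjusted p under 0.05 (4 of 10, against 7.31% of tested genes). These 4 and Tap1 lay below every RMA library, against 5.18% of tested genes. The median log2 fold change was −0.37 for the 10 genes and −0.06 for all tested genes.

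Change with time was read from the early to the late stage within each model. With RMA, both classical heavy chain genes were higher on day 9 than on day 2 in every library, as were Tap1, Tap2, Tapbp, H2-Q7 and H2-T23, 7 of 10 against 11.5% of tested genes. With RMA-KR, the transporter genes Tap1 and Tap2 and H2-K1 were higher on day 14 than on day 2 in every library, 3 of 10 against 7.24% of tested genes. B2m overlapped in both models.
In RMA-bearing mice H2-K1 and H2-D1 rose, 2 of 10, where 2.18% of tested genes passed upward. Of the log2 fold changes 9 of 10 were positive, 6 had an unadjusted p under 0.05 (against 17.2% of tested genes), and the median was 0.43 for the 10 genes and −0.05 for all tested genes. B2m (0.58), Tap1 (0.47), Tapbp (0.44) and H2-Q7 (0.41) were higher without passing. The count was 0 without RMA early 1, RMA early 3, RMA late 1 or RMA late 2, and 1 without RMA early 2. With only the libraries of these 2 groups in the fit, both calls were lost and 1 of all 11493 tested genes passed.
In RMA-KR–bearing mice none of 10 passed (edgeR), where 0.287% of tested genes passed upward. Tap1 (0.81) and Tap2 (0.47, SE 0.15, edgeR adjusted p = 0.186) had an unadjusted p under 0.05 (2 of 10, against 15% of tested genes), and DESeq2 passed 1, Tap1, in both modes, where 609 and 449 of all 45237 genes passed. The median was 0.11 for the 10 genes and −0.10 for all tested genes.
The difference between the models in this change was tested as an interaction. None of 10 passed with edgeR or DESeq2, and 0% of tested genes passed with edgeR and 149 and 78 of all 45237 genes with DESeq2. At an unadjusted p under 0.05 there was 1 of 10 members, against 10.4% of tested genes. It was H2-D1, with a log2 difference of −0.51 (SE 0.23, edgeR adjusted p = 0.442). Late stages fall on days 9 and 14, so tumor and time cannot be told apart here.

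**Figure D5:**
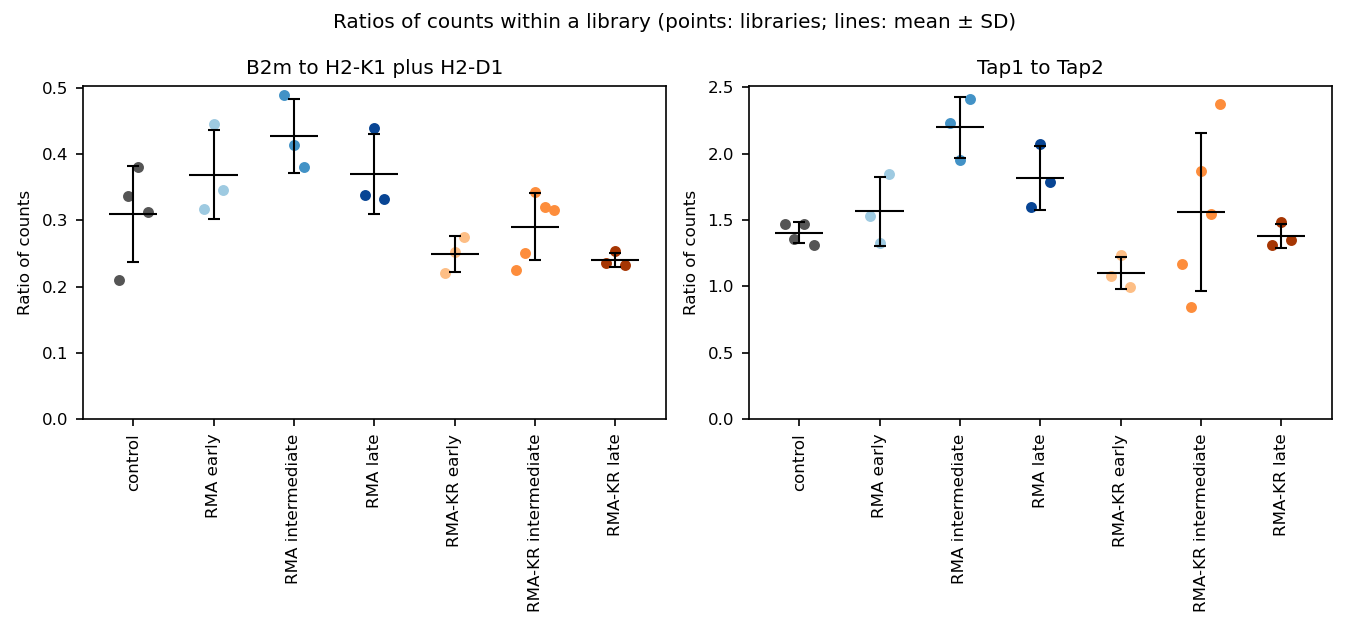
Ratios of counts within a library (vertical axes) of B2m to H2-K1 plus H2-D1 (left) and of Tap1 to Tap2 (right) by group (horizontal axes), with points for libraries and lines for mean ± SD. All RMA-KR libraries lie below the RMA libraries of their stage in the left panel.

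Ratios within a library do not depend on scaling, and 2 were chosen after seeing the data. They compare counts and not molecules, since the transcripts differ in length. B2m counts per count of H2-K1 plus H2-D1 were 0.210, 0.337, 0.381 and 0.312 in control. In RMA-bearing mice the ratio was 0.317, 0.445 and 0.345 on day 2, 0.489, 0.414 and 0.380 on day 4 and 0.339, 0.439 and 0.333 on day 9. In RMA-KR–bearing mice it was 0.221, 0.252 and 0.275 on day 2, 0.225, 0.250, 0.343, 0.320 and 0.315 on day 7 and 0.235, 0.253 and 0.233 on day 14.
At each stage every RMA-KR library was below every RMA library, and no tumor group was free of overlap with control. The log2 difference between the models was −0.56 early, −0.57 intermediate and −0.61 late. The two-sided exact permutation test gave p = 0.1, 0.0179 and 0.1, each the smallest that the design allows, and 0.200, 0.129 and 0.200 after adjustment over the 18 ratio tests, so none passed.
Tap1 per Tap2 count was 1.47, 1.36, 1.47 and 1.31 in control, 2.23, 1.95 and 2.41 in RMA intermediate, 1.60, 2.07 and 1.78 in RMA late and 1.08, 1.23 and 0.993 in RMA-KR early. The 2 RMA groups lay above all controls and RMA-KR early below all of them, each with an exact permutation p = 0.0286, the smallest possible, and an adjusted p = 0.129.
In RMA-KR intermediate the ratio was 1.17, 0.841, 1.87, 1.54 and 2.37, with the higher values in the 3 libraries low in Fos. Against control the log2 difference was 0.06, and −0.53 without control 4 and those 3 libraries.

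The members did not vary as 1 block. Across the 24 libraries, which differ in group and depth, Pearson correlations of log2 CPM are given as a description. The classical heavy chain genes H2-K1 and H2-D1 correlated at 0.89, and at 0.78 with group means removed. H2-T23 went with B2m (0.88, and 0.77 with group means removed) and with Tapbp (0.84 and 0.69). H2-Q7 correlated with Tap1 at 0.71 and 0.29, with B2m at 0.69 and 0.39 and with Nlrc5 at 0.41 and 0.54. H2-K1 and Tap1 correlated at 0.12, and at −0.60 with group means removed. The latter value did not hold in each group, since in control, RMA intermediate and RMA-KR late the library highest in H2-K1 was also highest in Tap1.
The genes most like the mean of the 10 members, by Pearson correlation over the 24 libraries, were Snrpb (0.903), Ifi35 (0.903), Txn1 (0.902), Psmb8 (0.899) and Tpi1 (0.899). With group means removed they were Tpi1 (0.825), Hist1h2bj (0.818), Gnptg (0.817), Psma2 (0.786) and Pfdn6 (0.786). By Spearman correlation 2 of the first 5, Psmb8 and Tpi1, were again among the top 5.

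Other genes of the pathway were taken from 7 lists, to see which other steps moved. They cover the proteasome that makes the peptides, the peptidases and chaperones that handle them and the factors that act on class I promoters. They also cover NK cell receptors of the families that read class I. The immunoproteasome and PA28 genes, whose products cut peptides for class I or help to, passed upward for 3 of 5 in RMA intermediate (Psmb8, Psme1 and Psme2) and 4 of 5 in RMA late, with Psmb9, and for 0 of 5 in each RMA-KR comparison with control. Their median log2 fold change was 0.69 and 0.93 in those RMA groups, against −0.29 and −0.18 over all tested genes. Of all tested genes, 1.85% and 2.14% passed upward there. With each library left out in turn (edgeR), Psmb8 passed in 3 of 7 and Psme2 in 5 of 7 intermediate fits. Both were lost without control 1. In RMA late, Psmb9 passed in 4 of 7 fits, and Psme1 and Psme2 in 6 of 7 each. Psmb9, Psme1 and Psme2 were all lost without RMA late 2. Psmb8 went from 372 ± 64.0 CPM in control to 712 ± 77.8 in RMA late (log2 fold change 0.94, SE 0.16, edgeR adjusted p = 0.00210).
Of the 12 interferon-stimulated reference genes, 5 passed upward in RMA intermediate (Oas1a, Usp18, Bst2, Rtp4 and Zbp1), the same 5 and Ifit3 in RMA late, and 1, Usp18, in RMA-KR late, and none in the other comparisons with control. The median log2 fold change was 2.06, 1.84 and 0.98 in these 3, against −0.29, −0.18 and −0.18 over all tested genes. Of all tested genes, 1.85%, 2.14% and 0.889% passed upward there. With each library left out in turn (edgeR), Zbp1 passed in 0 of 7 fits in RMA intermediate. In RMA late, Zbp1 and Ifit3 passed in 1 of 7 fits each. Bst2, Zbp1 and Ifit3 were all lost there without RMA late 2. In RMA-KR late, Usp18 passed in 3 of 7 fits. Usp18, which encodes a brake on interferon receptor signaling, rose from 29.4 ± 17.9 CPM to 238 ± 15.4 in RMA intermediate (log2 fold change 3.01, SE 0.40, edgeR adjusted p = 0.000221), and Bst2 by 2.09 (SE 0.38, adjusted p = 0.00383).
Among the transcription genes, Irf8 passed upward in RMA intermediate (1.12, SE 0.22, edgeR adjusted p = 0.00678) and RMA late (1.01, SE 0.22, adjusted p = 0.0119), and no gene of this list passed against control in RMA-KR. Of the 7 other loading complex genes and chaperones, only Pdia3, whose product ERp57 sits in the loading complex, passed, by 0.98 in RMA intermediate (edgeR adjusted p = 0.00618) and 0.94 in RMA late (adjusted p = 0.00726).
Of 12 other heavy chain genes tested of 16 listed, H2-T22 passed upward in RMA late (0.85, edgeR adjusted p = 0.00588) and RMA-KR late (0.67, adjusted p = 0.0478). Of 7 other peptidases tested of 8 listed, Blmh passed upward in RMA late. In RMA late, with edgeR, Irf8 was lost without control 1, control 4 or RMA late 2 (adjusted p up to 0.0718), Pdia3 without RMA late 2 (0.0849), H2-T22 without RMA late 1 (0.0553) and Blmh without control 1, 2 or 4 or RMA late 1 or 2 (up to 0.110). In RMA-KR late with edgeR, H2-T22 passed in 1 of 7 (adjusted p up to 0.301) fits with a library left out, and not without any one control or RMA-KR late 1 or 3.

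Genes listed as NK cell receptors for class I passed in either direction. The list goes by receptor family, and whether each product, that of Klra8 included, binds class I was not checked. Of 11 tested, Klra8 and Klrc2 fell in RMA intermediate, with log2 fold changes of −0.77 (edgeR adjusted p = 0.0428) and −1.05 (adjusted p = 0.0141). Of all 17097 tested genes, 84 passed downward there. With each library left out in turn with edgeR, Klra8 passed in 1 of 7 (adjusted p up to 0.288) and Klrc2 in 4 of 7 (adjusted p up to 0.129) fits. Klra8 was lost without control 1, 2 or 3 or any RMA intermediate library, and Klrc2 without control 3 or RMA intermediate 2 or 3. Klra7, which encodes the inhibitory receptor Ly49G2, rose in RMA late (log2 fold change 1.31, SE 0.21, edgeR adjusted p = 0.00103) and in RMA-KR late (log2 fold change 0.99, SE 0.21, adjusted p = 0.0151), and Klra1 in RMA late (0.97, adjusted p = 0.0158). Klra1 passed in 3 of 7 (adjusted p up to 0.138) edgeR fits with a library left out, and not without control 1, control 4, RMA late 1 or RMA late 2. In RMA-KR late with edgeR, Klra7 passed in 3 of 7 (adjusted p up to 0.148) such fits, and not without control 1, 2 or 4 or RMA-KR late 1.
In all, 13 of the 71 pathway genes tested passed in RMA intermediate and 17 in RMA late against control, where 401 and 455 of all 17097 tested genes passed in either direction. Of these pathway genes, 8 and 5 passed without any one library of the groups compared. The 8 included Pdia3, Psme1, Irf8, Oas1a, Usp18, Bst2 and Rtp4, and the 5 were Psmb8, Klra7, Oas1a, Usp18 and Rtp4. The late count was 11 without RMA late 1 and 6 without RMA late 2.
In RMA-KR late 3 of 71 passed, where 208 of all 17097 passed, and 0 did without control 1, control 2 or control 4 and 1 without RMA-KR late 1. H2-T22 was also lost without control 3, and H2-T22 and Usp18 without RMA-KR late 3, where the count was 3 with 2 other genes in their place. Without the 4 libraries low in Fos 0 passed there.
Between the models, 2 pathway genes passed at the early stage and 4 at the intermediate stage, where 58 and 110 of all 17097 tested genes did. Lnpep and Lap3, which encode peptidases, were lower in RMA-KR early than in RMA early, with log2 differences of −1.14 (edgeR adjusted p = 0.0473) and −2.04 (adjusted p = 0.0495). At the intermediate stage Irf8 (−0.98, edgeR adjusted p = 0.0283), Usp18 (−1.99, 0.00760) and Bst2 (−1.52, 0.0437) were lower in RMA-KR, and of these 3 only Usp18 passed without any one library. At the early stage the count of 2 fell to 0 without RMA early 1, RMA early 2 or any one RMA-KR early library, and at the intermediate stage the count was 1 to 2 without each single library.
From RMA early to RMA late 15 pathway genes passed, where 491 of all 17097 did, all higher but Creb1 and Lnpep, and Psmb8 and Klra7 alone passed without any one library. With only the libraries of these 2 groups in the fit, 1 of all 11493 tested genes passed, so at most 1 of the 15 did. From RMA-KR early to RMA-KR late, where 67 of all genes passed, only H2-T22 passed (0.87, edgeR adjusted p = 0.0351), and not in every fit that left out a library.

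Of the 4 most abundant genes of each list, those that passed in none of the 6 comparisons with control are given here with their mean ± SD in control (n = 4) and the range of their log2 fold changes over those comparisons. Among other heavy chain genes they were H2-Q6 (1121 ± 58.6 CPM in control, −0.16 to 0.06), H2-M3 (127 ± 19.4 CPM in control, −0.33 to 0.33) and Cd1d1 (53.3 ± 11.3 CPM in control, −0.96 to 0.56). Among loading complex genes and chaperones they were Hspa5 (1115 ± 355 CPM in control, −0.12 to 0.74), Canx (362 ± 122 CPM in control, −0.13 to 0.85) and Calr (311 ± 39.0 CPM in control, −1.02 to 0.63).
Among peptidases they were Lnpep (356 ± 77.3 CPM in control, −0.68 to 0.46), Tpp2 (314 ± 25.1 CPM in control, −0.30 to 0.08) and Rnpep (63.2 ± 12 CPM in control, −0.49 to 0.61), and of the immunoproteasome and PA28 genes Psmb10 (222 ± 42.9 CPM in control, −0.27 to 0.41). Transcription genes were Irf1 (555 ± 114 CPM in control, −0.70 to −0.27), Nfkb1 (139 ± 41.3 CPM in control, −0.20 to 1.09) and Rela (185 ± 42.6 CPM in control, −0.29 to 0.23). Receptor genes were Klra4 (1431 ± 222 CPM in control, −0.50 to 0.19) and Klrd1 (1270.4 ± 216 CPM in control, −0.49 to 0.02), and interferon-stimulated genes Irf7 (159 ± 12.5 CPM in control, 0.05 to 0.63).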

How the data were processed

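RNA sequencing counts per gene, which the authors deposited as one table, were used for 24 of its 112 columns. The authors had trimmed the single-end reads with cutadapt 1.10, removed ribosomal reads with Bowtie2 2.2.8, aligned the rest to mm10 with STAR 2.5.3a and counted them with HTSeq 0.6.1p1. The strand setting of the counting is not given in the sources used here. The 48 other per-library columns and the 29 comparison columns, made with DESeq2 1.16.1, were not used.
In R 4.3.3, genes with enough counts by edgeR's default filter were tested with edgeR 4.0.16 (TMM, robust quasi-likelihood, 1 model of the 7 groups), with limma 3.58.1 and DESeq2 1.42.0 for alternatives. Adjustment was Benjamini-Hochberg, and a gene passed with an adjusted p under 0.05. Genes passing with DESeq2 are given out of all 45237 genes of the count table. Its own filter can leave genes of low count without an adjusted p, so fewer genes may have been open to a call.
The members and the pathway and marker lists were chosen with earlier results of these data known. Genes named are chosen from the members, pathway genes passing in any comparison with control, up to 4 of each list with the highest mean CPM, and the 5 most like the members. Other genes named passed in another comparison and were chosen after their values were seen.
Ratios were tested by exact permutation over 18 tests. Alternatives were other scaling, tools, filters, thresholds, a replicate block, fewer libraries and each library left out.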

Additional observations from a re-analysis of the deposited data

Results flagged for a closer look

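In the control and RMA-KR intermediate groups, which hold 4 and 5 libraries, the highest and the lowest library were checked for their distance from the rest. This was done for 24 groups of values, from the 10 members and the 2 ratios. In 2 of them the gap from a library to its nearest neighbor, as a share of the range, was above the 95% critical value of Dixon's test, and chance alone picks out about 1 in 20 groups.
H2-T23 in RMA-KR intermediate 2 was at 671 CPM, with the other 4 libraries of the group at 536 to 572 CPM. The gap to the nearest library took a share of 0.733 of the range of the group. Erap1 in control 1 was at 70.6 CPM, with the other 3 controls at 177 to 196 CPM, a share of 0.844. Control 1 also had the fewest counts of all libraries. The cause of either distance was not tested.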

How the results depend on the processing

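The number of members passing, out of 10, was recomputed under each alternative, and the direction of passing members never reversed. With a fold change above 2 required as well, the count went from 3 to 1 in RMA intermediate against control (Tap1), from 3 to 0 in RMA late against control and from 2 to 0 from RMA early to RMA late.
RMA intermediate against control, at 3, gave 2 to 4 under the other alternatives to the tool, filter and fit, and H2-T23 was lost with a replicate block, with only the compared groups in the fit and without the 4 libraries low in Fos.
RMA late against control, at 3, gave 5 with DESeq2 size factors in edgeR, 6 with DESeq2's default settings and 7 with betaPrior=TRUE. It gave 5 with no filter on low counts, 6 with at least 10 counts in every library and 1 with a replicate block. With libraries left out in turn it ran from 0 (without control 1 or RMA late 2) to 4 (without control 3).
RMA-KR late against control, at 0, gave 1 with DESeq2 size factors, 2 with DESeq2 (either mode), 2 with no filter and 1 with at least 10 counts. RMA-KR early against RMA early, at 0, gave 1 with DESeq2 (either mode) and 1 with no filter.
RMA-KR intermediate against RMA intermediate, at 0, gave 3 with DESeq2 (either mode) and 2 with no filter. It gave 1 with at least 10 counts, with a replicate block, with only the compared groups in the fit, and without control 4 and RMA-KR intermediate 3, 4 and 5, an alternative chosen after seeing the data. With libraries left out it ran from 0 to 1, the latter without RMA intermediate 1 (Tapbp) or RMA-KR intermediate 5 (Tap1).
RMA-KR late against RMA late, at 0, gave 1 with no filter. RMA early to RMA late, at 2, gave 0 with only the compared groups in the fit, and from 0 (without RMA early 1 or 3, or RMA late 1 or 2) to 2 (without RMA late 3) with libraries left out. RMA-KR early to RMA-KR late, at 0, gave 1 with DESeq2 (either mode), with no filter and with a replicate block. The cause of these changes was not tested.
Of 120 member log2 fold changes, 37 changed sign in at least 1 fit. The lowest unadjusted p among these 37 in edgeR was 0.0770 and their largest size 0.31. None of the 43 values with an unadjusted p under 0.05 in edgeR changed sign.
Pathway counts moved as well. RMA intermediate against control went from 13 to 23 with DESeq2 and to 30 with only the compared groups in the fit, and RMA-KR late against control from 3 to 11 with DESeq2. Others fell: RMA late against control from 17 to 6 without RMA late 2, and RMA-KR late against control from 3 to 0 with only the compared groups in the fit. RMA-KR early against RMA early went from 2 to 0 with that fit or a replicate block. From RMA early to RMA late, that fit passed 1 of all 11493 tested genes, against 491 of 17097, so at most 1 of the 15 pathway genes.
Scaling with DESeq2 size factors moved the median of all tested genes by less than 0.1 in each comparison. For RMA early to RMA late it changed the split of all passing genes from 372 higher of 491 to 295 higher of 463.
Libraries with the same replicate number were correlated with one another after group means were removed. Over 21 pairs of groups the correlation ran from −0.118 to 0.202, and in none was each above 0.1. A correlation over all genes cannot settle whether libraries with the same number were handled together.
Groups hold 3 to 5 libraries and edgeR put the variation shared by all genes at 0.852 (as a coefficient), so small changes can be missed. Bulk counts give no protein level and no surface level of class I. Tumor and day differ together after the early stage. Control 4 and RMA-KR intermediate 3, 4 and 5 differ from the other libraries in early response genes, and all comparisons with control share the same 4 libraries. Shared sequence between class I genes and overlapping genes limit how far a count belongs to 1 gene.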
